A study of Mus musculus with 6 samples.

Results

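The mitochondrial genome carries a small set of genes of its own, and all of its annotated genes were followed here in lymphatic endothelial cells of the mouse dura mater. The members are the 37 rows, of 55401 in the gene tables, whose symbol begins with mt-. They are 13 protein-coding genes, 2 ribosomal RNA (rRNA) genes and 22 transfer RNA (tRNA) genes, and the 3 classes are treated apart. The cells were sorted as CD31+, LYVE-1+, podoplanin+ and CD45- from the dura of WT mice, which per the methods were C57BL/6J males injected at 4 weeks of age. An adeno-associated virus of serotype 9 was given into the cisterna magna. In the AAV-VEGF-C group it encoded full-length mouse VEGF-C, a growth factor for lymphatic vessels. In the AAV-CTRL group it encoded part of the VEGFR3 ectodomain fused to Ig, a piece that does not bind VEGF-C. The time from injection to sorting is not given for these libraries in the sources used here. Each group had 3 libraries of total RNA, numbered by experiment, each from 10 to 12 pooled animals. A library is therefore an average over animals, and p-values measure the spread between pools.

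Both strands of the mitochondrial genome are transcribed into long RNAs that are cut into rRNAs, mRNAs and tRNAs, with many of the cuts made at the tRNAs that lie between the longer genes. The coding genes specify subunits of complexes I, III, IV and V of the respiratory chain, whose other subunits come from nuclear genes. Transcription, RNA stability and translation inside the organelle depend on nuclear genes as well. Of the members, mt-Nd6 is the one coding gene on the minus strand of the reference, and 8 of the tRNA genes lie on that strand too. The remaining 12 coding genes, both rRNA genes and 14 tRNA genes lie on the plus strand.

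The 5 tRNA genes with the most counts are shown because the tRNA class was the one with a higher share of counts in AAV-VEGF-C and because these genes are so short. Each is written 5′ to 3′ on its own strand, from GENCODE M21 on GRCm38, with the anticodon in capitals. They serve glycine (mt-Tg, chrM:9391-9458, plus strand), valine (mt-Tv, chrM:1025-1093, plus strand), proline (mt-Tp, chrM:15356-15422, minus strand), methionine (mt-Tm, chrM:3845-3913, plus strand) and lysine (mt-Tk, chrM:7700-7764, plus strand).
mt-Tg: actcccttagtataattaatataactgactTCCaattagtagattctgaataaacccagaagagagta
mt-Tv: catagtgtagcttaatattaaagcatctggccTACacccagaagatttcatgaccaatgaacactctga
mt-Tp: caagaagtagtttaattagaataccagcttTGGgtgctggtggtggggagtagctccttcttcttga
mt-Tm: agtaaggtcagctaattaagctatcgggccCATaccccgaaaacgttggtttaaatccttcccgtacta
mt-Tk: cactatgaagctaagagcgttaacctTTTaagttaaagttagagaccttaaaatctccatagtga
Their lengths were 68, 69, 67, 69 and 65 bases.

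Neighbouring genes of this compact genome can share bases, which bears on how a read is assigned. The 3 largest overlaps between coding genes are written on the plus strand, with the shared bases in capitals.
mt-Atp8 and mt-Atp6: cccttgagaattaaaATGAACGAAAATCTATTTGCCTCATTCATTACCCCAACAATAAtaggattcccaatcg
mt-Nd4l and mt-Nd4: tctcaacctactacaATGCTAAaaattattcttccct
mt-Nd5 and mt-Nd6: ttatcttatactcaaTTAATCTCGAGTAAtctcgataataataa
The first lies at chrM:7912-7984 and holds the 43 bases that belong to both mt-Atp8 and mt-Atp6, the 2 mitochondrially encoded subunits of ATP synthase. The second lies at chrM:10152-10188 and holds 7 shared bases of mt-Nd4l and mt-Nd4. The third lies at chrM:13537-13580 and holds the 14 bases where mt-Nd5 and mt-Nd6 meet on opposite strands.

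The total count was 6530269 to 12399498 in the AAV-CTRL libraries and 564475 to 3261935 in the AAV-VEGF-C libraries, so depth and treatment cannot be told apart. Several measures of the whole libraries moved with the groups. Genes of olfactory, vomeronasal and taste receptors, keratin-associated proteins and defensins (1935 genes) took 159 to 293 CPM (counts scaled to a common library total) in AAV-CTRL and 2884 to 7053 CPM in AAV-VEGF-C. The summed TPM (a level corrected for gene length and library total) of 6 lymphatic endothelial markers was 398 to 463 in AAV-CTRL and 127 to 268 in AAV-VEGF-C, and none of them was at 0 in any library. It was 899 to 1928 against 233 to 765 for 5 fibroblast markers (1 called lower, where 0.659% of all genes tested were), 61.2 to 217 against 9.05 to 57.0 for 4 mural cell markers, and 79.8 to 2376 against 13.7 to 1206 for 6 leukocyte markers. Markers of neurons (4 genes, 2 called higher, where 10.5% of all genes tested were) summed to 2.43 to 12.8 TPM and 5.75 to 9.83 TPM, those of skeletal muscle (6 genes, 4 at 0 in some library of each group, 1 tested and called higher) to 1.52 to 2.81 TPM and 1.74 to 15.5 TPM, and those of red cells (5 genes, each at 0 in some AAV-VEGF-C library) to 9.21 to 182 TPM and 0 to 84.3 TPM. The part of any of these in the results was not tested. AAV-CTRL 3 stood apart from the other libraries, with 1.98% of its counts on the single transcript CT010467.1 against 12.3% to 23.1% elsewhere.

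The 3 classes did not move together. Coding and rRNA genes took a smaller mean share of the counts in AAV-VEGF-C than in AAV-CTRL, at 0.487 and 0.408 of the control mean, whereas tRNA genes took 2.67 times the control mean. On this scale of counts the groups were apart for rRNA and tRNA and overlapped for the coding genes. Short nuclear genes were also higher in AAV-VEGF-C, as given below with the tRNA genes. In TPM the summed level of the coding genes was 4149 to 13658 in AAV-CTRL and 594 to 3127 in AAV-VEGF-C, and that of the rRNA genes 16510 to 52486 and 2559 to 10515, at 0.277 and 0.251 of the control mean and without overlap for either class. The TPM scale itself was shifted, as 36.4% of all tested genes were lower in AAV-VEGF-C without overlap. The median log2 fold change of all genes was -0.72 on log2(TPM + 1). In bulk RNA, fewer cells of a type and less RNA per cell cannot be told apart.

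The 13 coding genes together took 0.487%, 0.601% and 1.13% of counts in AAV-CTRL 1, 2 and 3, and 0.138%, 0.539% and 0.404% in AAV-VEGF-C 1, 2 and 3. AAV-CTRL 3 was highest and AAV-VEGF-C 1 lowest, and AAV-VEGF-C 2 lay above AAV-CTRL 1. The means were 0.740% ± 0.344 and 0.360% ± 0.205 (SD, n = 3 each). The mean difference of the log2 shares was -1.16, and -0.57 without AAV-VEGF-C replicate 1.

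The 2 rRNA genes took 2.22%, 3.08% and 6.20% of counts in the AAV-CTRL libraries and 0.671%, 2.15% and 1.87% in the AAV-VEGF-C libraries. Every AAV-VEGF-C value lay below every AAV-CTRL value, although AAV-VEGF-C 2 and AAV-CTRL 1 were close. The means were 3.83% ± 2.09 and 1.57% ± 0.787 (SD, n = 3 each), with a mean log2 difference of -1.32 that became -0.80 without AAV-VEGF-C replicate 1.

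The 22 tRNA genes took 135 CPM in AAV-CTRL 1 (95% Wilson interval 126.7 to 144.6), 135 CPM in AAV-CTRL 2 (127.3 to 143.5) and 54.8 CPM in AAV-CTRL 3 (50.8 to 59.0). They took 322 CPM in AAV-VEGF-C 1 (278.9 to 372.8), 259 CPM in AAV-VEGF-C 2 (233.5 to 286.2) and 287 CPM in AAV-VEGF-C 3 (269.4 to 306.2). Only counting error is covered by these intervals. All AAV-VEGF-C values lay above all AAV-CTRL values, with means of 289 ± 32.0 CPM and 108 ± 46.5 CPM (SD, n = 3 each). The log2 difference of 1.53 remained above 0 in each set with 1 library left out, between 1.09 without AAV-CTRL replicate 3 and 1.74. The tRNA genes of the plus strand had means of 84.0 ± 31.5 CPM in AAV-CTRL and 214 ± 16.4 CPM in AAV-VEGF-C, and those of the minus strand had means of 24.4 ± 15.1 and 75.4 ± 15.99 CPM, with no overlap between the groups in either set and no test.

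**Figure D1:**
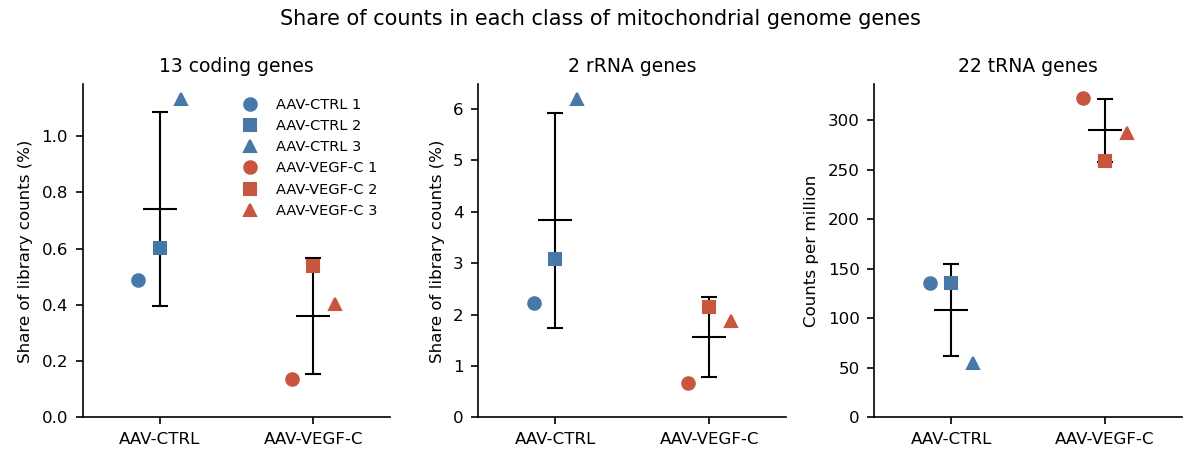
Share of each library's counts in the coding genes (left, percent), the rRNA genes (middle, percent) and the tRNA genes (right, CPM), one symbol per library, with the mean as a bar and the SD as whiskers (n = 3). The AAV-VEGF-C libraries lie below all AAV-CTRL libraries for rRNA and above them for tRNA, and the groups overlap for coding genes, where AAV-CTRL 3 is highest at 1.13%.

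The coding genes were compared one by one with the quasi-likelihood test of edgeR, with adjustment over the 17459 genes tested. All 13 were tested and 0 had an adjusted p under 0.05 (adjusted p from 0.188 to 0.769, and 0 at an unadjusted p under 0.05). Over all genes 10.5% were called higher and 0.659% lower. The log2 fold change of AAV-VEGF-C over AAV-CTRL was below 0 for the 12 coding genes on the plus strand, from -1.09 to -0.62, and above 0 for mt-Nd6, where 50.2% of all tested genes were below 0 and 49.8% above it. The median over the 13 genes was -0.89, beside -0.0037 over all genes tested and -0.45 over the 702 tested genes that averaged 50 TPM or more. With counts drawn down to the smallest total, the median over the 12 coding genes then tested was -0.27, with 3 above 0 and 0.08 over all genes, and with limma on log2(TPM + 1) it was -1.98 over the 13, with 10 at an unadjusted p under 0.05 and 0 called, beside -0.72 over all genes. The median was -0.57 without AAV-CTRL replicate 3, and leaving out AAV-VEGF-C replicate 2 gave -1.46. In CPM, 3 of the 13 were lower with no overlap between groups and 10 overlapped, where 19.1% of all tested genes were lower without overlap. In TPM the number was 8 of 13, beside 36.4% of all tested genes. Without a filter on low counts, 5 of the 13 were called lower, beside 2.64% of the genes then tested.

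Complex I, the NADH dehydrogenase that feeds electrons into the chain, takes its 7 mitochondrial subunits from the Nd genes. mt-Nd5 stood at 938, 1074 and 1643 CPM in AAV-CTRL 1, 2 and 3 and at 216, 792 and 652 CPM in AAV-VEGF-C 1, 2 and 3. Its groups did not overlap, and its log2 fold change was -1.005 (SE 0.45, edgeR adjusted p = 0.188), the smallest adjusted p of the coding genes. The values of mt-Nd4 were 358, 420 and 925 CPM against 140, 414 and 277 CPM, with AAV-VEGF-C 2 inside the control range. Its log2 fold change was -0.85 (SE 0.44, edgeR adjusted p = 0.249). For mt-Nd1 the 3 control values were 239.7, 357 and 595 CPM and the 3 AAV-VEGF-C values 63.8, 328 and 218 CPM, again with AAV-VEGF-C 2 in the control range. The log2 fold change was -0.82 (SE 0.51) for mt-Nd1, -0.89 (SE 0.53) for mt-Nd2 and -0.85 (SE 0.55) for mt-Nd4l. mt-Nd3 was the scarcest coding gene, with 81, 136 and 620 counts in the controls and 0, 32 and 30 counts in AAV-VEGF-C, and a log2 fold change of -1.05 (SE 0.80) that rests on few counts.

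Cytochrome b of complex III, encoded by mt-Cytb, took 962, 1022 and 1925 CPM in AAV-CTRL and 292, 826 and 731 CPM in AAV-VEGF-C. All 3 AAV-VEGF-C libraries lay below the controls, and the log2 fold change was -0.93 (SE 0.42, edgeR adjusted p = 0.197). The catalytic subunits of complex IV, cytochrome c oxidase, gave less separation. mt-Co1 took 1098, 1558 and 2742 CPM in AAV-CTRL and 328, 1476 and 1019 CPM in AAV-VEGF-C (log2 fold change -0.79, SE 0.53, edgeR adjusted p = 0.374). AAV-VEGF-C 2 lay between AAV-CTRL 1 and 2. The log2 fold changes of mt-Co2 and mt-Co3 were -0.90 (SE 0.58) and -1.06 (SE 0.72).

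mt-Atp6, which encodes the subunit a of ATP synthase beside which protons pass, had 618, 754 and 1550 CPM in AAV-CTRL and 111, 564 and 572 CPM in AAV-VEGF-C. The groups did not overlap. Its log2 fold change, -1.09 (SE 0.56, edgeR adjusted p = 0.244), was the lowest of the coding genes. mt-Atp8, the neighbour that shares the 43 bases shown above, had 41.3, 46.1 and 71.0 CPM against 10.6, 49.5 and 30.7 CPM and a log2 fold change of -0.62 (SE 0.43).

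Single libraries moved several of these values. Without AAV-CTRL replicate 3 the log2 fold change was -0.13 for mt-Nd4l, -0.30 for mt-Co2, -0.37 for mt-Co3, -0.47 for mt-Nd3 and -0.56 for mt-Nd4. Without AAV-VEGF-C replicate 1 it was -0.53 for mt-Nd1, -0.57 for mt-Nd2, -0.51 for mt-Co1 and -0.40 for mt-Atp8. Without AAV-VEGF-C replicate 2 these 9 genes lay between -2.13 for mt-Nd3 and -1.25 for mt-Atp8. The values of mt-Nd5, mt-Cytb and mt-Atp6 moved by less than 1.5 times in each of the 6 fits that left out 1 library.

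mt-Nd6 did not follow the other coding genes. It took 149, 107 and 64.7 CPM in AAV-CTRL 1, 2 and 3 and 60.1, 182 and 119 CPM in AAV-VEGF-C 1, 2 and 3. AAV-CTRL 3, the library with the most counts on the other coding genes, was the lowest of the controls, and the groups overlapped. The log2 fold change was 0.26 (SE 0.47, edgeR adjusted p = 0.769), and it was -0.17 when AAV-CTRL replicate 3 was left out, -0.26 when AAV-VEGF-C replicate 2 was, 0.60 when AAV-CTRL replicate 1 was and 0.44 when AAV-VEGF-C replicate 1 was. As a share of the summed TPM of the 12 coding genes on the other strand, mt-Nd6 amounted to 7.96%, 4.55% and 1.29% in AAV-CTRL and to 11.3%, 8.04% and 7.16% in AAV-VEGF-C. AAV-VEGF-C 3 lay under AAV-CTRL 1, so the groups overlapped, and the mean log2 difference of 1.27 was 0.53 without AAV-CTRL replicate 3. The counts of mt-Nd6 set against those of mt-Nd5, its partner in the overlap of 14 bases, were 15.9%, 10.0% and 3.94% in the controls and 27.8%, 23.0% and 18.2% in AAV-VEGF-C. Here the groups did not overlap. Whether the counting used the strand of the reads is not given in the sources used here, so reads from opposite strands at this overlap may not have been told apart.

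**Figure D2:**
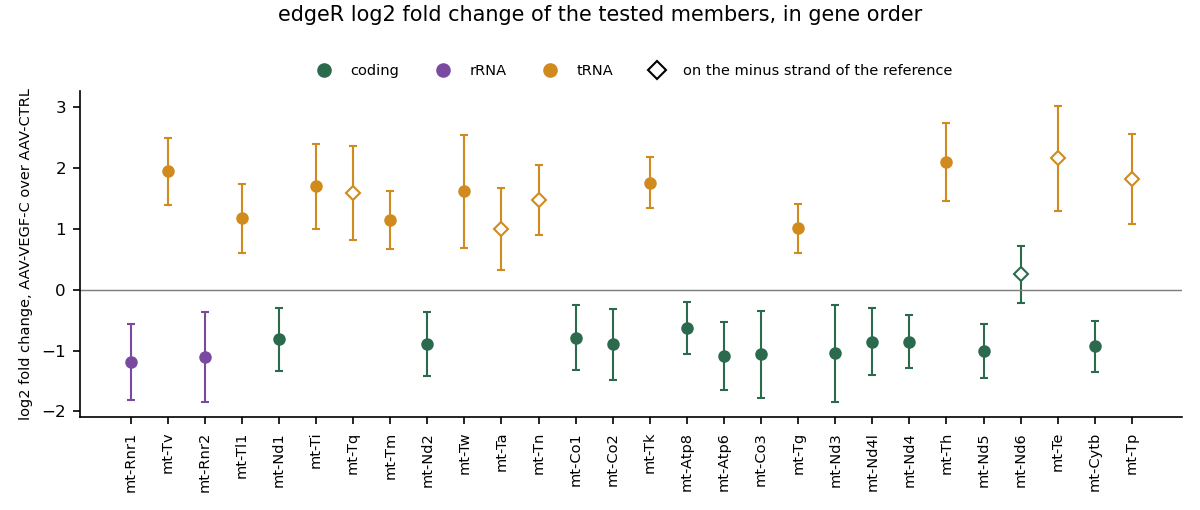
log2 fold change of AAV-VEGF-C over AAV-CTRL from edgeR, with its standard error as whiskers, for the 13 coding, 2 rRNA and 13 tested tRNA genes in their order along the genome; open diamonds are genes on the minus strand. The tRNA genes lie between 1.0 and 2.17, the rRNA genes near -1.1 and the coding genes of the plus strand between -1.09 and -0.62, with mt-Nd6 at 0.26.

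The order of the coding genes among themselves was much alike in the 6 libraries on the TPM scale. mt-Atp6, mt-Cytb and mt-Co1 were the 3 highest in every library, at 19.2%, 14.4% and 14.1% of the summed coding TPM on average over the libraries. They were followed by mt-Nd5 at 8.53%, and mt-Nd3 closed the order at 1.09%. The TPM of mt-Atp6 was 874, 1121 and 2885 in the controls and 78.2, 509 and 606 in AAV-VEGF-C. Its share of the coding TPM was 21.1% in each of the 3 controls and 13.2%, 16.3% and 22.6% in AAV-VEGF-C, so the groups overlapped. mt-Cytb and mt-Co1 did not differ beyond their spread, with shares of 11.9% to 16.9% and 13.1% to 15.4% over the libraries. The middle of the order, from mt-Atp8 (6.52%) over mt-Co2 (6.49%), mt-Nd6 (6.22%) and mt-Nd4 (5.98%) to mt-Nd1 (5.62%), could not be ranked beyond the spread between libraries. mt-Nd6 changed place most, from the thirteenth and last in AAV-CTRL 3 to rank 4 in AAV-VEGF-C 1. The deposited TPM rests on a length term of each library for short genes. Taking mt-Nd5 at its 1824 bases, the TPM and counts of mt-Atp8 (204 bases) implied a length of 73.8 bases in AAV-CTRL 3 and of 104.9 to 149.8 bases in the other libraries, so its TPM in AAV-CTRL 3 is raised relative to its counts.

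**Figure D3:**
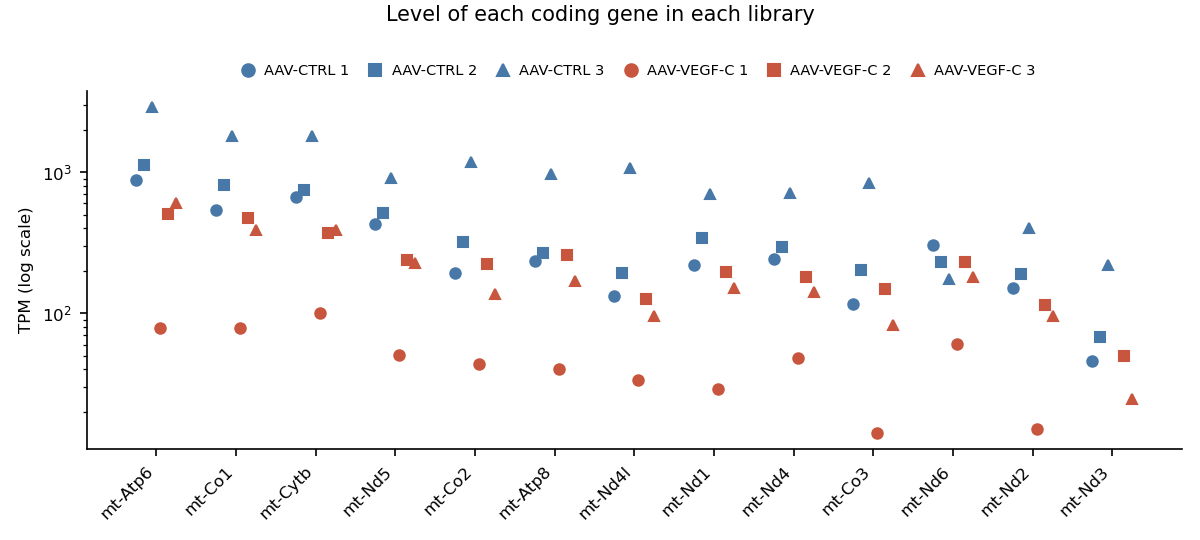
TPM of each coding gene in each library on a log axis, genes ordered by their mean. AAV-CTRL 3 is the highest library for every gene except mt-Nd6, AAV-VEGF-C 1 is the lowest for every gene, and its value of 0 for mt-Nd3 is not drawn.

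The rRNA genes were the most abundant members. mt-Rnr1, the RNA of the small mitochondrial ribosomal subunit, took 8513, 10797 and 23151 CPM in AAV-CTRL and 2774, 6897 and 6940 CPM in AAV-VEGF-C. The groups did not overlap, and the log2 fold change was -1.19 (SE 0.62, edgeR adjusted p = 0.259). mt-Rnr2, the RNA of the large subunit, took 13673, 20018 and 38846 CPM against 3933, 14648 and 11751 CPM, with AAV-VEGF-C 2 above AAV-CTRL 1. Its log2 fold change was -1.10 (SE 0.74, edgeR adjusted p = 0.374). With edgeR, 0 of the 2 genes were called (0 at an unadjusted p under 0.05), whereas DESeq2 called mt-Rnr1 lower (log2 fold change -1.26, adjusted p = 0.0358), beside 1.74% of the genes it tested.

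The rRNA and the coding genes kept a similar proportion to each other. The summed rRNA TPM was 3.98, 4.39 and 3.84 times the summed coding TPM in AAV-CTRL and 4.31, 3.23 and 3.92 times in AAV-VEGF-C. The groups overlapped, with means of 4.07 ± 0.282 and 3.82 ± 0.547 (SD, n = 3 each). The TPM of mt-Rnr1 was 1.07, 0.932 and 1.10 times that of mt-Rnr2 in AAV-CTRL and 1.16, 0.794 and 1.0 times in AAV-VEGF-C, likewise with overlap. Whether ribosomal RNA was removed during library preparation is not stated in the sources used here, and these levels depend on it.

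The reads named in the paper's methods were longer than any of the tRNA genes, so a read may reach into a neighbouring gene. Counts on these genes can thus come from mature tRNAs or from longer RNAs, which were not told apart. Among the tRNA genes, all 22 had a higher mean CPM in AAV-VEGF-C. For 10 of them every AAV-VEGF-C library lay above every AAV-CTRL library, which was so for 20.6% of all genes tested, and the other 12 overlapped. Of the 22 genes, 13 had enough counts to be tested. The 9 that did not, mt-Tc, mt-Td, mt-Tf, mt-Tl2, mt-Tr, mt-Ts1, mt-Ts2, mt-Tt and mt-Ty, had from 0 to 12 counts in a library. The edgeR log2 fold changes of the 13 tested tRNA genes were all above 0, with a median of 1.62. Those of the 69 tested nuclear genes spanning at most 100 bases were also all above 0, with a median of 1.53 and 0 called. A median of this size was therefore not particular to the tRNA genes. The filter on low counts can keep a scarce gene through its AAV-VEGF-C libraries, so the shared sign of these short genes may be partly set by it. mt-Tn, which was kept, had 1.99, 1.15 and 1.61 CPM in AAV-CTRL and 3.54, 4.88 and 3.68 CPM in AAV-VEGF-C. Without a filter all 22 tRNA genes were above 0, with a median of 1.37 beside 1.88 over all genes then tested. The edgeR test called mt-Tk higher, with 1 of the 13 past the threshold where 10.5% of all genes tested were called higher. It was also called by DESeq2 among 3 tRNA genes (19.5% of all genes higher), by voom among 3 (13.6%), without a filter among 4 (21.1%), with scaling on the 2000 most abundant genes among 4 (14.8%) and with library sizes alone among 2 (11.8%).

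mt-Tk, the tRNA for lysine, had 7.96, 8.02 and 5.0 CPM in AAV-CTRL and 24.8, 21.6 and 18.7 CPM in AAV-VEGF-C. The groups were far apart relative to their spread, and the log2 fold change was 1.76 (SE 0.42, edgeR adjusted p = 0.0368). These values rest on 52, 63 and 62 counts in the controls and on 14, 31 and 61 in AAV-VEGF-C, and the call was lost in each of the 6 fits that left out 1 library, where the log2 fold change was 1.38 to 1.88.

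mt-Tv, the tRNA for valine that lies between the 2 rRNA genes, had 21.3, 23.8 and 6.29 CPM in AAV-CTRL and 63.8, 63.4 and 54.9 CPM in AAV-VEGF-C. Both rRNA neighbours were lower in mean CPM in AAV-VEGF-C, and mt-Tv was higher without overlap (log2 fold change 1.95, SE 0.56, edgeR adjusted p = 0.0643). mt-Tg, the tRNA for glycine with the most counts of the class, had 47.6, 33.0 and 21.5 CPM against 63.8, 59.2 and 64.7 CPM. Its groups did not overlap, and its log2 fold change was 1.01 (SE 0.40, edgeR adjusted p = 0.149). mt-Tp, the tRNA for proline, had 15.9, 20.4 and 2.34 CPM against 46.1, 34.1 and 47.2 CPM (log2 fold change 1.82, SE 0.74, edgeR adjusted p = 0.158). AAV-CTRL 3 was low for this gene, and the groups did not overlap. mt-Tm, the tRNA for methionine that also starts translation, had 12.2, 14.6 and 5.81 CPM against 12.4, 22.3 and 31.9 CPM, with overlap, and its log2 fold change was 1.15 (SE 0.48, edgeR adjusted p = 0.167). Without AAV-CTRL replicate 3 the log2 fold change was 0.58 for mt-Tg, 1.18 for mt-Tp and 0.68 for mt-Tm.

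With the replicate number as a block, 5 tRNA genes were called higher, beside 12.8% of all genes tested. Their log2 fold changes were 1.14 for mt-Tg (SE 0.31, edgeR adjusted p = 0.0398), 1.82 for mt-Tk (SE 0.39, adjusted p = 0.0169), 2.21 for mt-Tv (SE 0.40, adjusted p = 0.00998) and 2.31 for mt-Tp (SE 0.65, adjusted p = 0.0440). The last of them, mt-Th, the tRNA for histidine, is named after its values were seen (2.33, SE 0.48, adjusted p = 0.0156). No coding or rRNA gene was called with the block, where 2.07% of all genes were called lower, with 7 coding and 0 rRNA genes at an unadjusted p under 0.05.

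The difference in the tRNA genes was smaller in TPM than in counts. In TPM, 1 of the 22 tRNA genes was higher without overlap, beside 12.8% of all tested genes, while 17 of the 22 had a higher and 5 a lower mean in AAV-VEGF-C. With limma on log2(TPM + 1), 0 of the 13 tested genes were called (0 at an unadjusted p under 0.05) and the log2 fold changes ran from -0.42 to 1.08, on a scale on which the median of all genes was -0.72. The TPM of mt-Tg was 1152, 948 and 829 in the controls and 448, 847 and 1110 in AAV-VEGF-C. On this scale the groups of mt-Tg overlapped, and AAV-VEGF-C 1, among the highest in CPM, was the lowest. With mt-Nd5 at its own length, the TPM of mt-Tg implied a length of 34.3, 30.2 and 26.0 bases in AAV-CTRL and of 61.1, 38.3 and 37.2 bases in AAV-VEGF-C, for a gene of 68 bases. The length term that turns counts of a tRNA gene into TPM therefore differed between libraries in the same direction as the counts.

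Relative to the coding genes of the same genome, the tRNA genes had 27.8, 22.5 and 4.84 counts for every 1000 coding counts in the controls and 234, 47.9 and 71.1 in AAV-VEGF-C, without overlap. The span within each group was wide, with AAV-CTRL 3 lowest and AAV-VEGF-C 1 highest.

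Parts of the mitochondrial genome also exist as copies in the nuclear genome, and a read that fits both can be given to either. Among the annotated transcripts, 11 pseudogenes aligned to 9 of the coding members with at least 95% identity over at least 50 bases. No rRNA or tRNA member and none of mt-Nd1, mt-Nd6, mt-Cytb and mt-Atp8 had such a copy among the annotated transcripts. Other nuclear sequence was not searched. A run of 7 pseudogenes lies within 24611535 to 24616197 on the minus strand of chromosome 1 (GRCm38) and matches mt-Nd4, mt-Nd4l, mt-Nd3, mt-Co3, mt-Atp6, mt-Co2 and mt-Co1. In the mitochondrial genome mt-Tk and the start of mt-Atp8 lie between mt-Co2 and mt-Atp6, and mt-Tg lies between mt-Co3 and mt-Nd3. Whether the nuclear run also holds copies of these stretches was not tested. Gm10925 was identical to mt-Atp6 over 678 of its 681 bases. Gm29216 and mt-Co1 shared 479 bases without a difference, up to the last base of mt-Co1.

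The counts given to these copies were not small. Of the counts on the 9 members and their copies, 24.7%, 25.2% and 8.14% lay on the copies in AAV-CTRL 1, 2 and 3, and 31.5%, 21.9% and 26.6% in AAV-VEGF-C 1, 2 and 3. AAV-CTRL 3 was low, and the other libraries of both groups overlapped. For mt-Co1 the share was 31.6%, 30.6% and 4.68% against 44.1%, 31.8% and 34.0%. For mt-Atp6 it was 37.8%, 38.8% and 20.8% against 52.3%, 27.8% and 35.4%. The values of these genes in the preceding paragraphs are therefore uncertain by the counts that the copies hold. With the counts of each copy added to its member, an alternative chosen after the data were seen, 0 of 13 coding genes were called by edgeR (0 at an unadjusted p under 0.05). The log2 fold change went from -0.79 to -0.51 for mt-Co1, from -1.05 to -0.67 for mt-Nd3 and from -1.06 to -0.89 for mt-Co3, and the median of the class was -0.86.

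**Figure D4:**
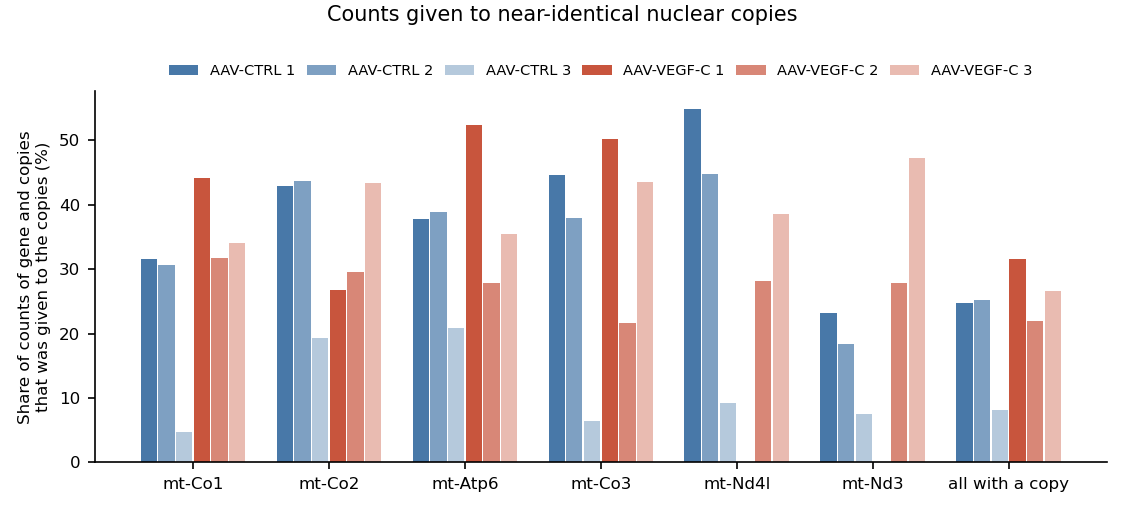
Share of the counts of a coding gene and its nuclear copies that the deposited table gives to the copies, in percent, one bar per library, for 6 genes and for all 9 genes with a copy. AAV-CTRL 3 has the lowest nonzero share for each gene shown, and AAV-VEGF-C 1 has no count on the copies of mt-Nd4l and mt-Nd3, where it holds 14 and 0 counts on the genes themselves.

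The nuclear genes for subunits of the same complexes were set beside the coding members, from a list of 70 genes of complexes I, III, IV and V. All 70 were tested, and edgeR called 0 of them (20 at an unadjusted p under 0.05, adjusted p from 0.0588 to 0.987). With the replicate block 2 were called (14.9% of all genes in either direction), Ndufb2 higher (2.10, SE 0.48, adjusted p = 0.0217) and Uqcrfs1 lower (-1.48, SE 0.42, adjusted p = 0.0454), the latter named after its values were seen. Of the 70 log2 fold changes, 64 were below 0, with a median of -0.69 beside -0.0037 over all genes. With scaling on the 2000 most abundant genes 50 of the 70 were below 0 (median -0.23, and 0.45 over all genes), and with counts drawn down to the smallest total 16 of the 30 then tested were (median -0.10, and 0.08 over all genes). The medians were -0.69 for complex I, -0.85 for complex III, -0.61 for complex IV and -0.68 for complex V. The list ran from Uqcrb of complex III at -1.61 (SE 0.61, edgeR adjusted p = 0.137) and Ndufs6 of complex I at -1.41 (SE 0.62, adjusted p = 0.189) up to Ndufb4 at 0.24 (SE 0.55, adjusted p = 0.823) and Ndufb2 at 2.63 (SE 0.77, adjusted p = 0.0691), both of complex I. Ndufb2 stood at 12.2, 13.1 and 13.8 TPM in AAV-CTRL and at 30.9, 10.4 and 14.5 TPM in AAV-VEGF-C, where the groups overlapped and AAV-VEGF-C 1 was highest. Without AAV-VEGF-C replicate 1 its log2 fold change was 1.13, and that of Ndufb4 was -0.27. Ndufb4 also went to 0.01 without AAV-CTRL replicate 1 and to 0.44 without AAV-VEGF-C replicate 2.

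The ratio between genes of the 2 genomes did not separate the groups. The summed coding TPM was 2.88, 3.15 and 4.43 times the summed TPM of the nuclear list in AAV-CTRL and 2.30, 5.13 and 2.90 times in AAV-VEGF-C. AAV-VEGF-C 1 and 2 were the lowest and the highest of the 6, and the means of 3.48 ± 0.828 and 3.44 ± 1.49 (SD, n = 3 each) differed by less than the spread. A mitochondrially encoded gene of complex III had 30.2 to 40.3 times the mean TPM of a nuclear gene of that complex in AAV-CTRL and 30.1 to 46.4 times in AAV-VEGF-C. The ranges were 15.6 to 19.4 and 11.6 to 25.5 for complex I, 8.99 to 18.3 and 8.23 to 22.2 for complex IV, and 18.5 to 32.9 and 13.2 to 31.9 for complex V. The groups overlapped for each complex.

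**Figure D5:**
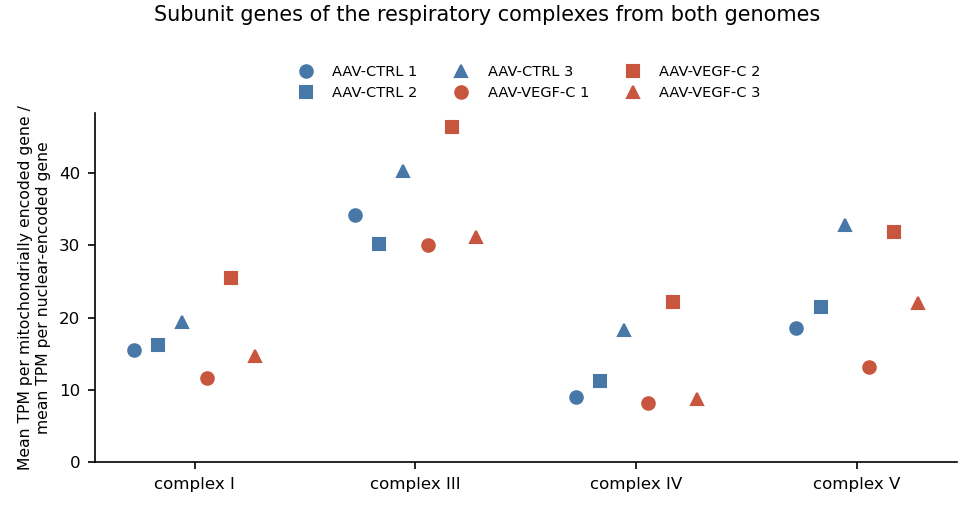
Mean TPM per mitochondrially encoded subunit gene divided by the mean TPM per nuclear-encoded subunit gene of the same complex, one symbol per library. The groups overlap for all 4 complexes, and AAV-VEGF-C 2 is above AAV-VEGF-C 1 and 3 in each.

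A list of 43 nuclear genes covered replication and transcription of the mitochondrial genome, processing and decay of its RNAs, and regulators of these steps. Of them 39 were tested and 1 was called, beside 11.2% of all genes tested in either direction. The median log2 fold change of the list was -0.14. Polrmt, the mitochondrial RNA polymerase, had 3.01, 3.44 and 4.41 TPM in AAV-CTRL and 1.77, 1.23 and 2.93 TPM in AAV-VEGF-C. The groups did not overlap in TPM, where 36.4% of all tested genes were lower in AAV-VEGF-C without overlap. On the count scale the log2 fold change of Polrmt was -0.31 (edgeR adjusted p = 0.860). Tfam, which packages the genome and starts its transcription, had 3.25, 4.11 and 11.9 TPM against 1.02, 1.72 and 2.25 TPM, also without overlap, and its log2 fold change was -0.25 (SE 0.61, edgeR adjusted p = 0.835). These directions depend on the scaling, since both log2 fold changes were above 0 with scaling factors from the 2000 most abundant genes, at 0.16 for Polrmt and 0.23 for Tfam, a scaling that moved the median of all genes to 0.45. Tfb2m, a transcription factor that acts with the polymerase, held 1 to 105 counts per library, and its log2 fold change was -1.01 (SE 0.56, edgeR adjusted p = 0.281). Lrpprc and Slirp, whose proteins form a complex that keeps mitochondrial mRNAs stable, had log2 fold changes of -0.71 (SE 0.27, edgeR adjusted p = 0.131) and 0.57 (SE 0.56, adjusted p = 0.546). Pde12, an enzyme that trims the tails of mitochondrial RNAs, gave -0.93 on the same scale (SE 0.30, edgeR adjusted p = 0.0905). Leaving out 1 library moved 4 of these values by over 1.5 times. Polrmt was at -0.51 without AAV-CTRL replicate 3. When AAV-VEGF-C replicate 3 was left out, Polrmt was at -0.75 and Tfb2m at -1.54. Tfam ran from -0.91 without AAV-VEGF-C replicate 1 to 0.05 without AAV-CTRL replicate 3, with a shift of that size for each of the 6 libraries. Slirp was at 0.16 without AAV-CTRL replicate 3, 0.37 without AAV-VEGF-C replicate 3 and 0.94 without AAV-CTRL replicate 1.

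The gene called was Ppargc1a, a coactivator of mitochondrial biogenesis. Its counts were 29, 27 and 37 in the controls and 40, 24 and 36 in AAV-VEGF-C, in libraries of lower total. Of all tested genes, 12.8% were higher in AAV-VEGF-C without overlap in TPM. On that scale Ppargc1a stood at 0.874, 0.459 and 0.640 in AAV-CTRL and at 4.39, 1.72 and 0.968 in AAV-VEGF-C, without overlap. Its log2 fold change was 3.37 (SE 0.84, edgeR adjusted p = 0.0414). The call was lost in each of the 6 fits without 1 library, and without AAV-VEGF-C replicate 1 the log2 fold change was 1.90.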

How the data were processed

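The tables were deposited by the authors, 1 of estimated counts per gene without any scaling and 1 of TPM, in which the authors corrected for gene length and library total. The libraries were made with a stranded total RNA kit for low input. The submitters' processing notes name FastQC, Trimmomatic, DRAGEN, Picard and mm10. How reads on several genes were split, and whether strand or molecular identifiers were used in counting, is not given in the sources used here. Groups came from the labels. Gene identifiers equalled those of GENCODE M21 (GRCm38) for 98.1% of rows, and 99.5% without the version, so positions and sequences come from that annotation. All 37 members matched.

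Estimated counts were rounded. Genes were kept by filterByExpr of edgeR 4.0.16 (R 4.3.3), scaled by TMM and compared by quasi-likelihood F tests, with p-values adjusted over 17459 genes (Benjamini-Hochberg, threshold 0.05), after testing the script on simulated data. Alternatives were other scalings and filters, DESeq2 1.42.0 (the tool of the study), voom with sample weights, limma 3.58.1 on log2(TPM + 1) and log2(TPM + 0.1), counts drawn down to the smallest total, a replicate block, leaving out each library and, chosen after seeing the data, adding the counts of nuclear copies. Copies were sought with blastn 2.17.0 among the annotated transcripts. Sums and ratios per library had no test. The replicate numbers name repeats of the experiment, and the replicate block takes them to pair the libraries, whereas the main test does not. Deviations of same-numbered libraries correlated across genes at 0.369, 0.28 and 0.155, and those of differently numbered libraries at -0.395 to 0.216. AAV-CTRL 3 correlated more with AAV-VEGF-C 2 (0.216) than with AAV-VEGF-C 3, so its pairing rests on the labels and not on these correlations.

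The members and lists were chosen with earlier results of these data known. The genes named are all coding and rRNA members, the 5 tRNA genes with the most counts and any called, Polrmt, Tfam, Tfb2m, Lrpprc, Slirp and the 3 maintenance genes of smallest adjusted p, and the 2 highest and 2 lowest nuclear respiratory genes. Depth limits the AAV-VEGF-C libraries most, and Wilson intervals at 95% cover counting error only.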

Additional observations from a re-analysis of the deposited data

How the results depend on the processing

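With 3 pools per group, totals of 564475 to 12399498 counts limit mt-Nd3, the tRNA genes and low nuclear genes most, and the causes of the shifts below were not tested. The count of coding genes called stayed at 0 except with no filter, where 5 were lower (mt-Co2, mt-Atp6, mt-Co3, mt-Nd3 and mt-Nd5). That of rRNA genes was 1 with DESeq2. Instead of 1 of 13 tested, the tRNA genes called numbered 2 with library sizes alone, 4 with scaling on the 2000 most abundant genes and 3 with voom. With no filter they numbered 4 of 22, and with DESeq2 3 of 21. They numbered 0 above a mean TPM of 5 (11 at an unadjusted p under 0.05), with limma at either pseudocount (0 and 0) and with counts drawn down (1). Each fit without 1 library also called 0 (3 to 6 at an unadjusted p under 0.05). Instead of 1 maintenance gene called, 1 was higher and 2 lower with no filter (21.1% and 2.64% of all genes). The number was 0 above a mean TPM of 5 (0 at an unadjusted p under 0.05), with limma (14 and 8) and with voom (4). It was also 0 with drawn-down counts (1) and in each fit without 1 library (2 to 6). Instead of 0, 1 nuclear respiratory gene was called higher with library sizes alone (11.8% of all genes) and 1 higher with the 2000 most abundant genes (14.8%). With no filter 1 was higher (21.1%) and 12 lower (2.64%), and with DESeq2 1 was higher (19.5%) and 2 lower (1.74%). At a pseudocount of 1 limma called 14 lower, beside 434 of all 17459 genes, and at 0.1 it called 3 lower, beside 163. With voom 1 was lower (1.53%). Over all genes the count went from 1950 to 10557 with no filter, 9 above a mean TPM of 5, 6173 with DESeq2 and 0 with drawn-down counts (382 at an unadjusted p under 0.05). Without 1 library it ran from 0 (without AAV-CTRL replicate 2, with 5071 at an unadjusted p under 0.05, and without AAV-CTRL replicate 3, with 4627) to 1819, with 8 without AAV-VEGF-C replicate 2, 328 without AAV-VEGF-C replicate 3 and 1276 without AAV-VEGF-C replicate 1.

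With the replicate block, the count of tRNA genes called was 5, that of nuclear respiratory genes 2 and that of all genes 2603, and the block changed no other call of a member or named gene. Signs turned for mt-Nd2 (0.10) and mt-Atp8 (0.23) with drawn-down counts, for mt-Nd6 (-0.75 and -0.76), mt-Tg (-0.37 and -0.37), mt-Tm (-0.30 and -0.31), Slirp (-0.78 and -1.27) and Ndufb4 (-0.68 and -0.83) with limma on TPM, for Ndufb4 with no filter (-0.038) and voom (-0.0115), for Polrmt with the 2000 most abundant genes (0.16) and drawn-down counts (0.10), and for Tfam with the 2000 most abundant genes (0.23). Without 1 library the log2 fold change ran from -0.26 to 0.60 for mt-Nd6, from -0.91 to 0.0505 for Tfam and from -0.27 to 0.44 for Ndufb4, the log2 ratio of rRNA to coding TPM from -0.19 to 0.0162 and that of coding to nuclear respiratory TPM from -0.41 to 0.17. The shares of the 3 classes kept their direction in each set of libraries and with CT010467.1 taken out of the total.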
